A study of Homo sapiens with 12 samples.

Results

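The genes described here are those of centromere chromatin loading: CENPA, CENPB, CENPC, HJURP, MIS18A and OIP5. They were chosen by name, with earlier results of these data known, and are 6 of the 60648 genes in the table of gene counts and 6 of the 18289 that passed a filter on low counts. Poly-A RNA-seq was made from HCT116, a human colon carcinoma line, in 4 groups of 3 libraries. MTHFD2-WT (wild type) and MTHFD2-KO (knock-out) cells were each sampled at a time called initial, when the knock-out had just been made, and at a time called final, when 2 months in culture had passed. The knock-out was made with CRISPR-Cas9 and grown from 1 clone, so its libraries are replicates of that clone and the loss of MTHFD2 and other properties of the clone cannot be told apart. The series names the 3 libraries of a group biological replicates.

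Each chromosome is attached to the spindle at its centromere, whose position is marked by nucleosomes that carry CENP-A, a variant of histone H3, in place of the usual H3. CENP-C binds these nucleosomes and links them to the kinetochore, the complex that holds spindle microtubules, while CENP-B binds a short DNA motif in the alpha satellite repeats. New CENP-A is loaded after mitosis: the MIS18 complex, which holds MIS18A and OIP5 (also called MIS18B), licenses the centromere, and the chaperone HJURP brings CENP-A to it. In dividing cells many centromere genes are transcribed mainly towards G2 and mitosis. MTHFD2 is a folate enzyme of mitochondria, and the series' title names a nuclear form of it together with centromere methylation.

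The genes lie on 5 chromosomes, with coordinates on GRCh38 as the count table gives them. CENPA (ENSG00000115163.15) spans chromosome 2, 26764289 to 26801067, on the plus strand. HJURP (ENSG00000123485.12) spans chromosome 2, 233833416 to 233854566, on the minus strand. CENPC (ENSG00000145241.11) spans chromosome 4, 67468762 to 67545503, OIP5 (ENSG00000104147.9) chromosome 15, 41309273 to 41332591, CENPB (ENSG00000125817.8) chromosome 20, 3783851 to 3786740, and MIS18A (ENSG00000159055.4) chromosome 21, 32268228 to 32279049, all on the minus strand.

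Promoter sequences were found for 5 of the 6 genes in RefSeq (GRCh38.p14), all except MIS18A. The upstream 250 bases of 3 of them are shown: CENPC, whose transcript differed between genotypes, and CENPA and HJURP, a histone and its own chaperone. They are written 5′ to 3′ on the strand of the gene and end just before the RefSeq gene start, which for CENPA and HJURP is not the end of the span above. Capitals mark the CCAAT box and the cell cycle homology region TTTGAA, an element of genes transcribed late in the cell cycle, on either strand (ATTGG and TTCAAA on the other strand).
CENPC, chr4:67545504-67545753: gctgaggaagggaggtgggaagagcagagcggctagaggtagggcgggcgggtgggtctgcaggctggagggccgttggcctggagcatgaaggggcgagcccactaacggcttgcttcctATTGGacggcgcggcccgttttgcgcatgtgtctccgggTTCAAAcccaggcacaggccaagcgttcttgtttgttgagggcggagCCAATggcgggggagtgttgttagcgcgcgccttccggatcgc
CENPA, chr2:26785806-26786055: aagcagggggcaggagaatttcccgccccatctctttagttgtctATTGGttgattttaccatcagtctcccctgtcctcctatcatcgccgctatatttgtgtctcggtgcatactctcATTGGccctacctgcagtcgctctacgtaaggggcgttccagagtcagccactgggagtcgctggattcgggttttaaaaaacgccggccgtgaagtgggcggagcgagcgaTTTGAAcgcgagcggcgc
HJURP, chr2:233854536-233854785: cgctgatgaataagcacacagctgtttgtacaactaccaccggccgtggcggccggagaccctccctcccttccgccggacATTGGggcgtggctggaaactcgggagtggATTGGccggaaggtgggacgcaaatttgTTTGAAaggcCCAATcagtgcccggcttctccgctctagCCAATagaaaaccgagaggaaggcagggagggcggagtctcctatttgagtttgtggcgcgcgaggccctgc

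TTTGAA began 18 bases before the start of CENPA and 111 bases before that of HJURP on the strand of the gene, and 90 bases before that of CENPC on the other strand. In windows from 250 bases before to 50 after the start, 3 of the 5 genes held TTTGAA and 4 held CCAAT, against 15.2% and 34.6% of 35116 RefSeq promoters. OIP5 also held TTTGGCGC, one spelling of an E2F site, which 0.652% of the promoters had, and none of the 5 held the spelling TTTCGCGC (0.515%). CENPB held none of the motifs searched, and its upstream 250 bases were 81.6% G and C, against 64.8% in CENPC. A match here describes letters and was not tested as a site.

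Library totals lay between 38597809 and 40017561 counts. MTHFD2 itself had 406, 457 and 375 CPM in the initial and 319, 368 and 379 CPM in the final wild type. Knock-out libraries had 128, 138 and 146 CPM initially and 155, 123 and 133 CPM finally, so the labels and the targeted gene went the same way in all libraries. CPM here are counts scaled to library size with TMM factors, which correct for differences in library composition. Of 6 epithelial markers, EPCAM, CDH1, KRT8, KRT18 and KRT19 had at least 4191 counts in every library, while VIL1 had 1 to 12. Of 7 markers of other cell types, PTPRC and CD3E had at most 2 counts and CD68 at most 6. PECAM1 had 8 to 22 counts, VWF 33 to 69, COL3A1 7 to 74 and COL1A1 1420 to 2848. The summed counts of the 7 were 2344 to 2948 in the wild type and 1480 to 2337 in the knock-out.

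CENPC, the inner kinetochore protein on CENP-A nucleosomes, was the one gene of the 6 that differed between genotypes at each harvest. In the wild type it had 31.4, 28.2 and 30.7 CPM initially and 32.0, 30.7 and 31.7 CPM finally. In the knock-out it had 19.2, 19.3 and 18.5 CPM initially and 20.3, 19.4 and 18.9 CPM finally. The genotypes did not overlap, with the highest of 6 knock-out values at 20.3 and the lowest of 6 wild-type values at 28.2 CPM. The group means were 30.1 ± 1.65 and 31.5 ± 0.683 CPM in the wild type and 19.0 ± 0.424 and 19.5 ± 0.698 CPM in the knock-out (SD, n = 3).

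CENPC fell in the knock-out to 63.2% of the wild-type level at the initial harvest (95% interval 56.4% to 70.8%) and to 62% at the final harvest (55.4% to 69.5%). The log2 fold changes were -0.66 (SE 0.077, adjusted p 1.18e-05) and -0.69 (SE 0.077, adjusted p 7.07e-06) in edgeR's quasi-likelihood test, and -0.68 (SE 0.055, adjusted p 8e-08) for the average of both harvests. Among all 18289 genes tested, an adjusted p at least as small was found for 360 genes initially, for 348 finally and for 311 on average. In size the change was less rare, since 2195 genes at the initial harvest and 2163 at the final harvest changed by at least as much in either direction.

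**Figure D1:**
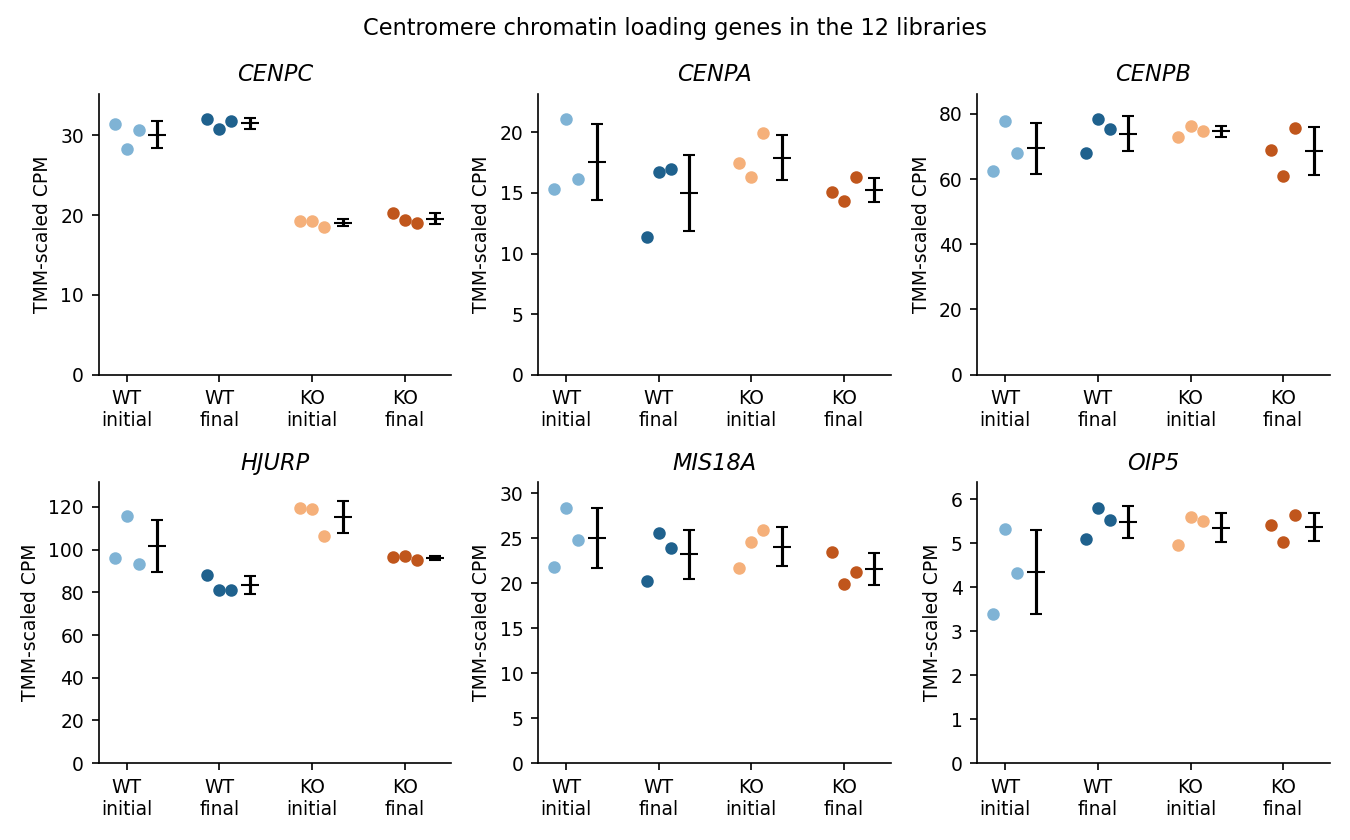
TMM-scaled CPM of the 6 genes (1 panel each, axes from 0) in the 4 groups; coloured points are the 3 libraries and the black bar is the mean with its SD. The 6 knock-out values of CENPC, 18.5 to 20.3 CPM, sit below the 6 wild-type values, 28.2 to 32.0 CPM, and over both harvests the genotypes overlap in the other 5 genes.

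CENPC did not pass the test over 2 months of culture in either genotype. Its level at the final harvest was 105% of the initial level in the wild type (95% interval 93.6% to 117%, adjusted p 0.693) and 103% in the knock-out (91.6% to 115%, adjusted p 0.865). The interaction, the change of the genotype effect from one harvest to the next, was -0.03 on the log2 scale (SE 0.109, 95% interval -0.26 to 0.20, adjusted p 0.951). The interval of the final genotype ratio runs from 83.6% to 115% of the initial ratio.

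The reads of CENPC came from a transcript that shares little with other annotated genes. None of its 8496 exon bases lay in the exons of another gene in the table. Of its 8653 windows of 50 bases in GENCODE 29 transcripts, 4.51% also occurred in another gene, most of them in the pseudogene CENPCP1. CENPCP1 had 0 to 6 counts per library, against 726 to 1284 for CENPC. The handling of multi-mapped reads is not stated, so the low count of CENPCP1 does not show where reads of the shared windows were counted.

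Within 5 Mb of the start of CENPC, 8 other genes had a mean of at least 1 CPM, and none of the 8 was as low as CENPC on average over both harvests. All 8 start on the same side of CENPC, 0.156 to 3.447 Mb away, and no gene on its other side reached that level within 5 Mb. The median log2 fold change of the 8 was -0.11, from -0.17 to 0.17. None of the 8 passed edgeR's test, which 30.1% of all tested genes passed on average, and 2 of them, YTHDC1 and UTP3, had an unadjusted p under 0.05. DESeq2 called 1 of the 8, YTHDC1, which edgeR put at -0.16 (adjusted p 0.0502). The nearest, the ubiquitin-activating enzyme gene UBA6 (-0.11, adjusted p 0.222) and its divergent transcript UBA6-DT (-0.11, adjusted p 0.249), start 0.156 Mb from it. Of the 10 nearest tested genes, 5 on each side, 1 was lower on average, beside 16.1% of all tested genes. It was RPS15AP17, a ribosomal protein pseudogene at 0.319 CPM (-1.04, adjusted p 0.0207), a larger estimate than that of CENPC at a far lower level.

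**Figure D2:**
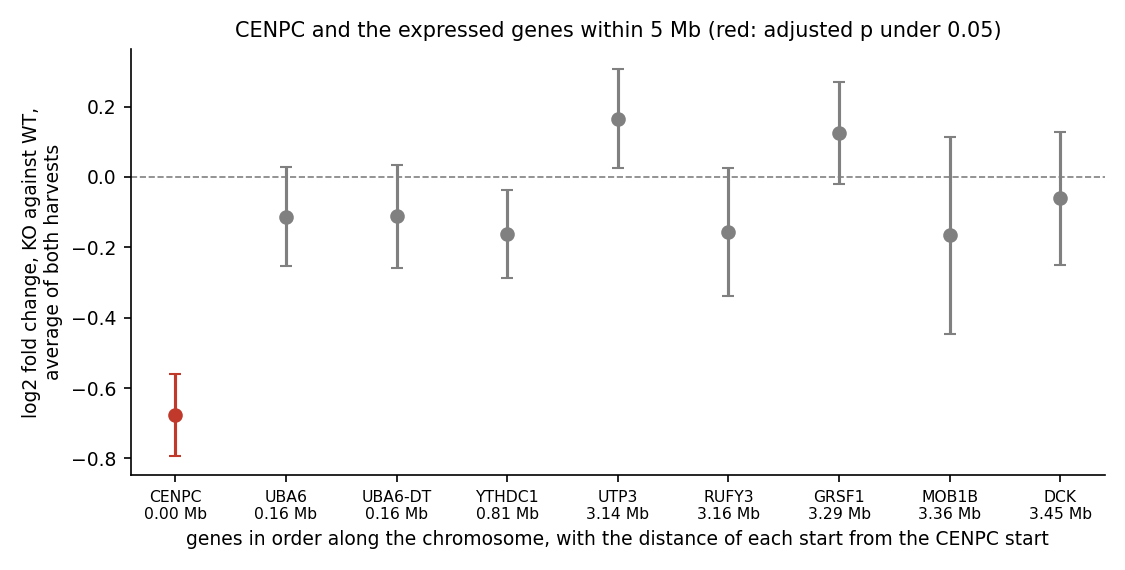
Log2 fold change of knock-out against wild type, average of both harvests, for CENPC and the 8 other genes within 5 Mb that had at least 1 CPM, in order along the chromosome; points are edgeR estimates and bars their 95% intervals. CENPC is at -0.68 and the others, all on the same side of it, lie between -0.17 and 0.17.

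CENPA, the histone variant itself, showed no genotype difference past the threshold. Its values were 15.3, 21.1 and 16.2 CPM in the initial and 11.4, 16.7 and 16.9 CPM in the final wild type. In the knock-out it had 17.5, 16.3 and 19.9 CPM initially and 15.0, 14.4 and 16.3 CPM finally. The wild-type libraries spread more widely than the knock-out libraries, and all genotype ranges overlapped. The knock-out had 102% of the wild-type level at the initial harvest (95% interval 82.4% to 127%, adjusted p 0.915) and 101% at the final harvest (81.4% to 126%, adjusted p 0.951). The lower bounds of both intervals lie above the upper bound for CENPC, and both intervals include 100%.

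Over culture, CENPA was at 85.8% of its initial level in the wild type (69.0% to 107%, adjusted p 0.439) and at 85.0% in the knock-out (68.5% to 106%, adjusted p 0.493), both short of the threshold. In the knock-out the harvests did not overlap, with the lowest initial value at 16.3 and the highest final value just under it. Of the exon bases of CENPA, 138 of 1949 (7.08%) lie in exons of SLC35F6 on the same strand, a gene with 3593 to 4756 counts per library whose average genotype difference was 0.01 (adjusted p 0.909).

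HJURP, the chaperone that carries CENP-A to the centromere, was higher in the knock-out on average over both harvests, by a small amount. It had 96.1, 116 and 93.1 CPM in the initial wild type and 120, 119 and 106.5 CPM in the initial knock-out, where the groups overlapped. At the final harvest it had 88.3, 81.0 and 81.0 CPM in the wild type and 96.6, 97.1 and 95.2 CPM in the knock-out, without overlap. The knock-out stood at 114% of the wild type on average (95% interval 104% to 125%, log2 fold change 0.19, SE 0.062, adjusted p 0.0268).

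The difference in HJURP did not pass at either harvest alone, with 113% at the initial (99.6% to 129%, adjusted p 0.172) and 115% at the final harvest (101% to 131%, adjusted p 0.121). The call on average was lost in 9 of the 16 alternatives that gave a value: without a filter on low counts (adjusted p 0.0502) and without any 1 of 8 libraries. These 8 were the initial wild-type replicates 1 and 3, the final wild-type replicates 2 and 3, the initial knock-out replicates 1 and 2 and the final knock-out replicates 1 and 3, with adjusted p from 0.0507 to 0.088. Over all 16 alternatives its value stayed between 0.16 and 0.24 (adjusted p 0.00236 to 0.088).

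Over culture, HJURP had the lowest estimate of the 6 genes in both genotypes. The final level was 82.1% of the initial level in the wild type (72.1% to 93.4%, unadjusted p 0.00516, adjusted p 0.0676) and 83.7% in the knock-out (73.5% to 95.2%, unadjusted p 0.00969, adjusted p 0.17). Harvests did not overlap in either genotype. The wild-type value passed under DESeq2 (-0.29, adjusted p 0.0363) and without the final wild-type replicate 1 (-0.335, adjusted p 0.0477). Its interaction was 0.03 (95% interval -0.24 to 0.29, adjusted p 0.957).

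The 2 subunits of the MIS18 complex in the set did not pass the test in any comparison. MIS18A had 21.8, 28.4 and 24.8 CPM in the initial and 20.2, 25.5 and 23.9 CPM in the final wild type. The knock-out values of MIS18A were 21.7, 24.6 and 25.9 CPM initially and 23.5, 19.95 and 21.3 CPM finally. All 4 groups of MIS18A overlapped. The knock-out had 96.3% of the wild-type level at the initial (81.3% to 114%, adjusted p 0.792) and 92.9% at the final harvest (78.4% to 110%, adjusted p 0.598).

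OIP5 was the least abundant by counts, with 139 to 225 per library. It had 3.39, 5.31 and 4.33 CPM in the initial and 5.10, 5.81 and 5.54 CPM in the final wild type. Knock-out cells had 4.97, 5.59 and 5.51 CPM initially and 5.41, 5.03 and 5.65 CPM finally. The 2 lowest of its 12 values were in the initial wild type, and the groups overlapped. The knock-out stood at 123% of the wild type at the initial harvest (99.9% to 152%, unadjusted p 0.0507, adjusted p 0.158) and at 97.8% at the final harvest (79.5% to 120%, adjusted p 0.909), with an interaction of -0.33 (95% interval -0.76 to 0.09, adjusted p 0.537). Over culture in the wild type the final level was 126% of the initial one (102% to 156%, adjusted p 0.196).

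Counts of OIP5 are uncertain, because 817 of its 1201 exon bases (68%) lie in exons of genes on the other strand and the strand setting of the counting is not stated. OIP5-AS1, the antisense RNA known as Cyrano, shares 465 exon bases with it and had 2968 to 4780 counts per library. NUSAP1, a spindle protein gene, shares 352 and had 21 to 41. A further gene without a symbol, ENSG00000285920, also shares 352 and had 0 in every library. How reads over shared bases were assigned is not stated, so the low count of NUSAP1 does not show how strongly it was transcribed. The average genotype difference of OIP5-AS1 was 0.07 (adjusted p 0.621) and that of NUSAP1 was -0.13 (adjusted p 0.661).

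CENPB, the alpha satellite binding protein, was the steadiest of the genes across the 12 libraries, with a coefficient of variation of 8.22% and a highest-to-lowest ratio of 1.29. Its values were 62.4, 77.8 and 68.0 CPM in the initial and 68.0, 78.4 and 75.5 CPM in the final wild type. CENPB in the knock-out had 72.9, 76.3 and 74.7 CPM initially and 69.0, 61.0 and 75.7 CPM finally. The ranges overlapped in each comparison. The average genotype difference was 99.8% (95% interval 90.3% to 110%, adjusted p 0.984). The estimates at the harvests lay on opposite sides, 108% at the initial (93.3% to 124%) and 92.7% at the final harvest (80.4% to 107%), and the interaction of -0.22 did not pass (95% interval -0.50 to 0.08, adjusted p 0.561).

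**Figure D3:**
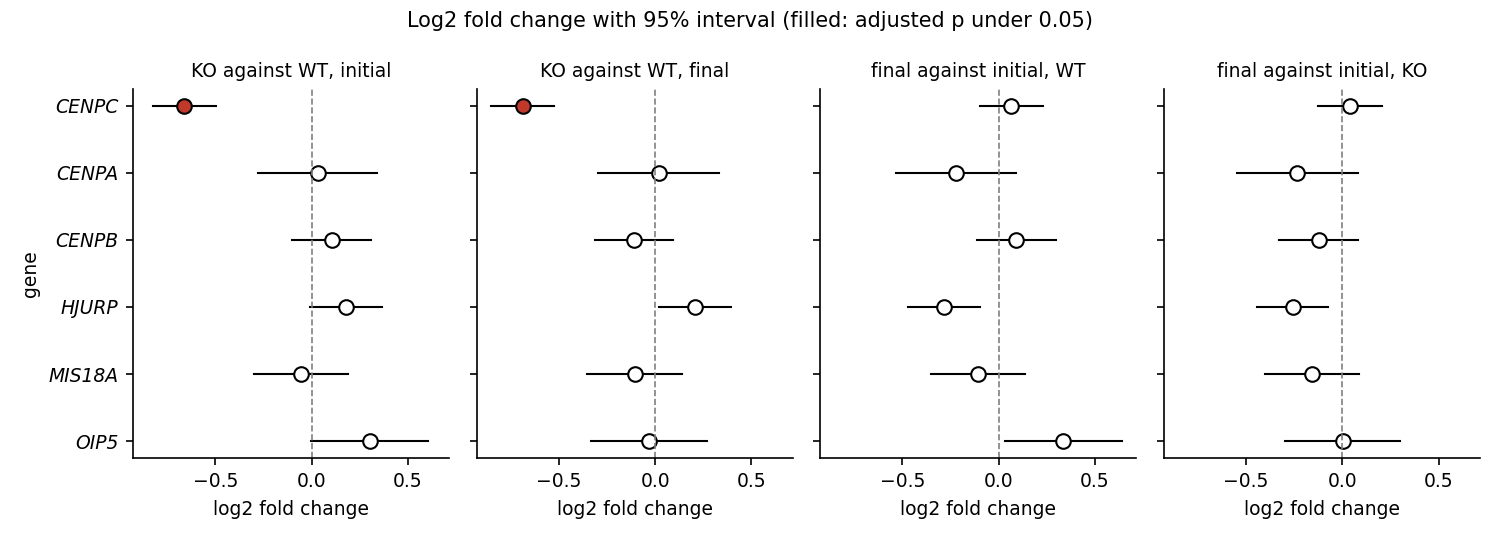
Log2 fold changes of the 6 genes in 4 comparisons, with 95% intervals from the edgeR fit of all 12 libraries; filled points have an adjusted p under 0.05. CENPC is filled in both genotype comparisons, at -0.66 and -0.69, and no point is filled in the comparisons over culture.

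Counted over the set, the initial comparison of genotypes had 1 of 6 genes lower and none higher in the knock-out, where 11.3% of all tested genes were lower and 8.55% higher. At the final harvest 1 of 6 was lower and none higher, against 10.2% lower and 8.38% higher. On average 1 was lower and 1 higher, against 16.1% and 14%. The set's median log2 fold change was 0.07, -0.07 and 0.01 in these comparisons, beside 0.00 for all genes tested in each. Genotype ranges did not overlap in 1 of 6 genes at the initial harvest (35.5% of all tested genes), in 2 at the final harvest (33.1%) and in 1 over both harvests (12.8%).

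Over culture, 0 of the 6 genes passed in the wild type in edgeR's test, where 6.47% of all genes did (3.05% higher and 3.42% lower). Of the 6, 2 had an unadjusted p under 0.05, and DESeq2 called 1. In the knock-out 0 passed, against 1.48% of all genes (0.837% higher and 0.64% lower), with 1 at an unadjusted p under 0.05 and 0 called by DESeq2. Ranges of the harvests did not overlap in 1 gene in the wild type (22.2% of all genes) and in 2 in the knock-out (23.2%). The interaction gave 0 of 6 in edgeR and in DESeq2, with 0 at an unadjusted p under 0.05, against 1.28% of all genes (0.809% positive and 0.476% negative). Among the 6 genes the interaction estimates ran from -0.33 in OIP5 to 0.03 in HJURP.

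Levels of different genes were compared as CPM per kb of exon, the summed length of all annotated exons of the gene. HJURP and CENPB stood highest and CENPC and OIP5 lowest. The place of OIP5 is uncertain in each group, since most of its exon bases are shared with genes on the other strand. In the initial wild type the means were 26.6 ± 3.21 for HJURP, 24.0 ± 2.70 for CENPB, 14.8 ± 1.97 for MIS18A, 8.99 ± 1.61 for CENPA, 3.62 ± 0.799 for OIP5 and 3.54 ± 0.195 for CENPC (CPM per kb, SD, n = 3). HJURP and CENPB overlapped there, as did OIP5 and CENPC, and the other neighbours in the order did not.

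In the final wild type CENPB stood first (25.6 ± 1.85 CPM per kb) and HJURP next (21.8 ± 1.11), without overlap, and in the initial knock-out HJURP stood first (30.1 ± 1.95) and CENPB next (25.8 ± 0.600), again without overlap. In the final knock-out the pair overlapped. In the knock-out CENPC had 2.24 ± 0.0496 CPM per kb at the initial and 2.30 ± 0.0819 after culture, and all its libraries lay below those of OIP5. The level of CENPC per exon length was 0.307 to 0.470 of that of CENPA in the initial wild type and 0.421 to 0.645 in the final wild type. In the initial knock-out this ratio was 0.213 to 0.271, and in the final knock-out 0.267 to 0.310, so the genotypes did not overlap within a harvest.

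**Figure D4:**
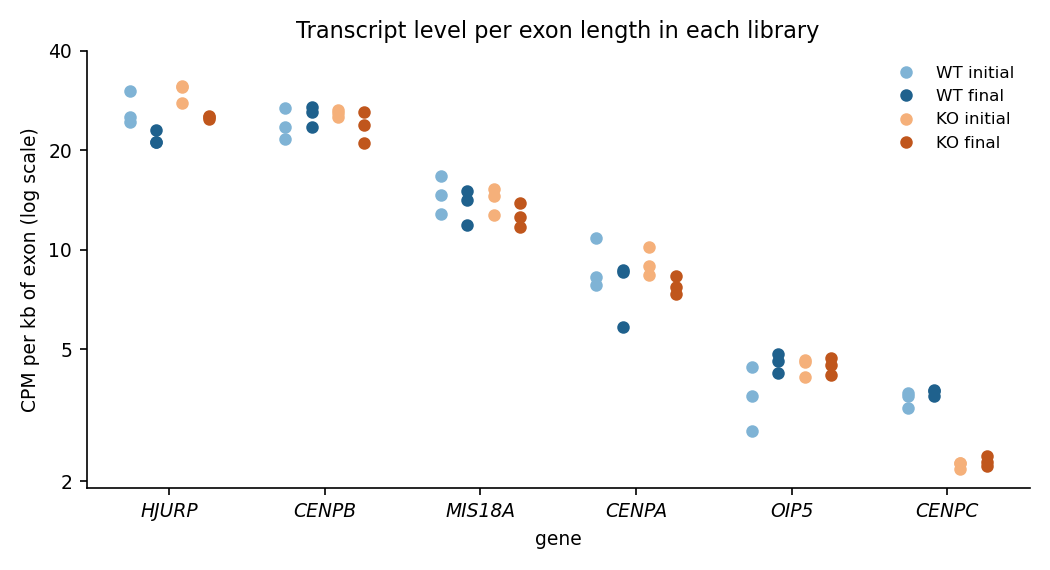
CPM per kb of exon (log scale) of the 6 genes in each of the 12 libraries, coloured by group. HJURP and CENPB lie highest in every library, and CENPC falls from 3.32 to 3.77 in the wild type to 2.18 to 2.39 in the knock-out.

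Some libraries stood at the edge of their group for several of the genes. The initial wild-type replicate 2 was the highest of its group for CENPA, CENPB, HJURP, MIS18A and OIP5 and the lowest for CENPC, while the initial wild-type replicate 1, the final wild-type replicate 1 and the final knock-out replicate 2 were each the lowest of their group for 4 of the 6. In the initial wild-type replicate 2 the median of the G1/S reference list was 0.17 and that of the G2/M reference list 0.13 above the all-library mean of each gene (log2), the highest of its group in both. In the final knock-out replicate 2 these medians were -0.15 and -0.13, the lowest of its group in both. The part of these lists in the results was not tested. Without the initial wild-type replicate 2, HJURP (0.28, adjusted p 0.0177) and OIP5 (0.47, adjusted p 0.0199) passed as higher in the initial knock-out, so that 3 of the 6 genes were called. Over all tested genes this comparison called 3635 (19.9%) with all libraries and 2423 to 4615 with 1 library left out. Without the same replicate, OIP5 passed over culture in the wild type (0.50, adjusted p 0.0362).

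Lists of other centromere genes were examined beside the set, and their counts on average over both harvests stand against 14% of all tested genes higher and 16.1% lower. CENP-A deposition partners (18 genes, among them the kinase PLK1 and the histone-binding RBBP4 and RBBP7) had 2 higher and 0 lower, with a median of -0.02, and the share of higher genes was near that background. These were CDK1, the mitotic kinase (0.18, adjusted p 0.0319), and PLK1, which promotes licensing of CENP-A loading (0.23, adjusted p 0.0427). Both calls were lost in most alternatives, CDK1 in 9 of 16 and PLK1 in 10 of 16. At either harvest alone 0 of the 18 passed in edgeR, where 19.9% of all tested genes passed initially and 18.5% finally. In each, 1 of the 18 had an unadjusted p under 0.05, and DESeq2 called 0 initially and 1 finally. No share over all genes is given for the unadjusted and DESeq2 counts.

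The constitutive centromere-associated network is the group of proteins that sits on the centromere with CENP-C through the cell cycle. Of its 15 other genes, 2 were higher and 1 lower in the knock-out on average, beside 14% and 16.1% of all tested genes, with a median of -0.01. CENPO rose (0.23, adjusted p 0.00672), CENPP rose (0.30, adjusted p 0.0159) and CENPU fell by 0.24 (log2, adjusted p 0.0144). CENPO and CENPU held in all 16 alternatives, and CENPP in 13. At the initial harvest alone 0 of the 15 passed, where 19.9% of all tested genes did. CENPO (adjusted p 0.207), CENPP (0.226) and CENPU (0.107) were thus not called. At the final harvest alone 3 of the 15 were higher and 0 lower, beside 8.38% and 10.2% of all tested genes. CENPO (0.0166) and CENPP (0.0482) were among the 3, and CENPU (0.0961) did not pass. None of the 15 had a fold change as low as that of CENPC, the lowest being CENPS at -0.33 (adjusted p 0.0805), which did not pass and was picked out for its value.

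The KMN network is the outer kinetochore that binds microtubules, and CENP-C contacts its MIS12 part directly. Of 10 genes, 1 was higher and 0 lower on average, again beside 14% and 16.1%, with a median of -0.01. The gene was ZWINT, which links this network to the checkpoint proteins of the RZZ complex. ZWINT had 126 ± 14.1 CPM in the initial and 99.2 ± 3.45 CPM in the final wild type, and 179 ± 6.62 and 175 ± 3.66 CPM in the knock-out (SD, n = 3). It rose by 0.50 at the initial (SE 0.083, adjusted p 0.000347), by 0.82 at the final harvest (SE 0.083, adjusted p 2.18e-06) and by 0.66 on average (SE 0.059, adjusted p 2.34e-07), and the genotypes did not overlap. Over culture in the wild type 2 of the 10 genes were lower and 0 higher, beside 3.42% and 3.05% of all tested genes. ZWINT was 1 of the 2 and fell by 0.34 (adjusted p 0.0195), a call kept in 13 of 17 alternatives. In the knock-out 0 of the 10 passed, beside 1.48% of all tested genes, with ZWINT at -0.03 (adjusted p 0.915). The interaction of ZWINT did not pass (0.32, adjusted p 0.257).

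In the inner centromere list, the chromosomal passenger complex and its partners, 3 of 8 genes were higher on average and 0 lower, beside 14% and 16.1% of all tested genes, with a median of 0.12. They were CDCA8 (borealin; 0.21, adjusted p 0.0136), BIRC5 (survivin; 0.22, adjusted p 0.0494) and the histone kinase HASPIN (0.20, adjusted p 0.0463). CDCA8 stayed called in all 16 alternatives, BIRC5 in 6 (adjusted p up to 0.132) and HASPIN in 5 (up to 0.13). At either harvest alone 0 of the 8 passed, where 19.9% of all tested genes passed initially and 18.5% finally. In the list of centromere DNA methylation and heterochromatin, 1 of 14 was higher and 2 lower, beside the same 14% and 16.1%, with a median of 0.01. ZBTB24 rose (0.16, adjusted p 0.0481), while the histone methyltransferase KMT5B (-0.19, adjusted p 0.0193) and the DNA methyltransferase DNMT3B (-0.18, adjusted p 0.0285) fell. These calls held in 4 of 16 alternatives for ZBTB24 (adjusted p up to 0.174), in 12 for KMT5B (up to 0.0619) and in 9 for DNMT3B (up to 0.0772). At the initial harvest alone 1 of the 14 was lower, KMT5B (-0.27, adjusted p 0.0292), and 0 higher, beside 11.3% and 8.55% of all tested genes. At the final harvest alone 1 was higher, ZBTB24 (0.25, adjusted p 0.0474), and 0 lower, beside 8.38% and 10.2%. DNMT3B passed at neither harvest alone (adjusted p 0.264 initially and 0.0804 finally). It had 59.6 ± 3.89 and 66.1 ± 3.89 CPM in the wild type and 54.2 ± 3.67 and 56.9 ± 2.54 CPM in the knock-out at the initial and final harvest (SD, n = 3).

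Among 10 other chaperones of histone H3, 0 passed on average in edgeR and in DESeq2, with 2 at an unadjusted p under 0.05. In edgeR 30.1% of all tested genes passed on average. Of 18 genes of the G2/M reference list, which holds CDK1 and CCNB1 of the deposition list too, 4 were higher and 0 lower (median 0.08), beside 14% and 16.1% of all tested genes. Among the 4 were HMMR (0.23, adjusted p 0.0101), called in all 16 alternatives, and AURKA (0.24, adjusted p 0.0196), called in 11. Of 14 genes of the G1/S reference list, 2 were higher and 0 lower (median 0.05), and the share of higher genes was near the background of 14%. They were RRM2 (0.24, adjusted p 0.02), called in 11 of 16 alternatives, and MCM4 (0.21, adjusted p 0.0249), called in 8.

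**Figure D5:**
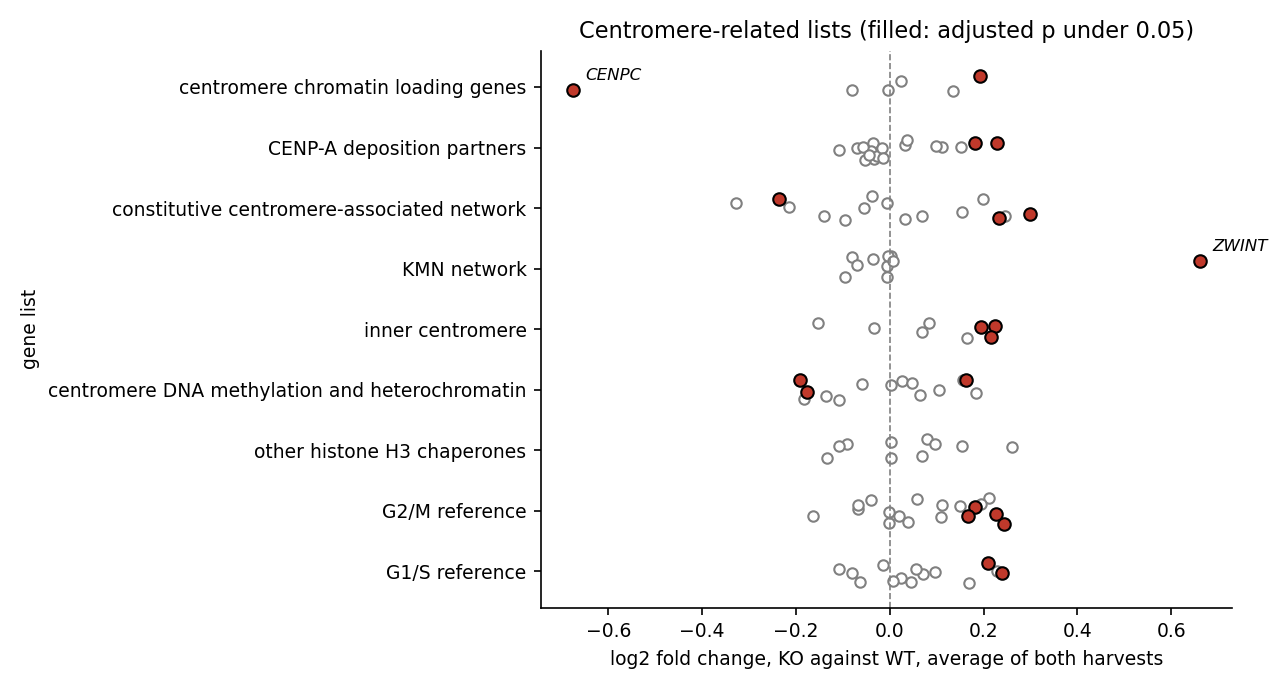
Log2 fold change of knock-out against wild type, average of both harvests, for each gene of the set and of 8 lists (rows); points are genes, spread vertically to be visible, and filled points have an adjusted p under 0.05. CENPC at -0.68 and ZWINT at 0.66 lie farthest from 0, and the other filled points lie between -0.24 and 0.30.

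The genes whose pattern over the 12 libraries was most like that of each gene, by Pearson correlation of log2 CPM over all tested genes, are given as a description. The one given for CENPC was GAPVD1 (0.996), over libraries that share the same genotype split. For CENPA the 2 most alike were the pseudogene PRELID1P1 (0.930) and LSM14B (0.922), and for HJURP ZNF343 (0.954) and COL15A1 (0.954). PRELID1P1 had only 8 to 28 counts per library and COL15A1 19 to 92, so their correlations rest on low counts. For CENPB the 2 were VPS37B (0.982) and CAPZB (0.9752). For MIS18A they were ISY1 (0.946) and DTD1 (0.927), and for OIP5 NACC1 (0.957) and ZNHIT2 (0.955). None of the genes named here for likeness is in the set or in the 8 lists.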

How the data were processed

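Poly-A RNA-seq libraries of 12 HCT116 samples were used. The authors deposited unnormalized whole-number counts for each gene and library, per the file headers. STAR, featureCounts, Subread and hg38 are named in the submitters' processing notes, with no version; the annotation release, the strand setting and the handling of multi-mapped reads are not given in the sources used here. Exon lengths are those of the deposited table. The table broke 1 gene over 5 lines, which were left out; symbols were found for 60636 of 60648 genes. Of the table's genes, 37318 occur with the same version in GENCODE 29, all with identical coordinates.

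After filterByExpr (18289 genes kept) and TMM scaling, a single quasi-likelihood model with 4 group means and robust dispersions was fitted to the 12 libraries in edgeR 4.0.16 under R 4.3.3 (with limma 3.58.1). P-values were Benjamini-Hochberg adjusted over all tested genes, and the threshold was 0.05. There were 6 comparisons. SE and 95% intervals come from the quasi-likelihood F statistic. The script was tested on simulated data. The alternatives were RLE factors, DESeq2 1.42.0, no filter on low counts, a replicate block, only the groups compared, and each of the 12 libraries left out. Counts limit precision through counting error and replicate spread alike.

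The members and lists were chosen with earlier results of these data known. The genes named are the 6 genes, MTHFD2, the 3 genes with the smallest average adjusted p under 0.05 in each list, the 1 with the smallest interaction adjusted p if under 0.05 (none), and the 2 most alike genes of each member; some items that the rule names are not reported here. Outside this rule, genes overlapping a member, those within 5 Mb of CENPC, RPS15AP17 and CENPS were named after their values were seen.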

Additional observations from a re-analysis of the deposited data

How the results depend on the processing

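Of 600 values of the 6 genes under the alternatives, 586 kept their side of the threshold, 9 lost it and 5 gained it, and none past the threshold changed sign. CENPC stayed called in both genotype comparisons and on average under each alternative, with log2 fold changes from -0.71 to -0.63 at the initial and from -0.72 to -0.68 at the final harvest. The number of the 6 genes called on average was 1 without a filter on low counts, in place of 2, and over culture in the wild type it was 1 under DESeq2, in place of 0. Leaving out single libraries gave 1 to 3 genes for the genotypes initially, 1 finally, 1 to 2 on average, 0 to 1 over culture in the wild type and 0 both over culture in the knock-out and for the interaction. With a replicate block the numbers called were 1, 1, 2, 0, 0 and 0, as without it. Same-numbered libraries of different groups had correlations of deviations from -0.59 to 0.534 and 4 of 12 libraries correlated best with one of their own number, so the block is not read as a pairing.

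The background counts moved more. Over all genes, calls over culture in the knock-out (270) were 484 without a filter, 728 with only the groups compared, 599 under DESeq2 and 94 to 463 with a library left out, and those in the wild type (1183) were 578 with only the groups compared and 627 to 1399 with a library left out. The interaction (235) gave 423 without a filter, 464 under DESeq2 and 124 to 444 with a library left out, and the initial genotype comparison (3635) gave 2423 without the initial knock-out replicate 2.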
